A study of Mus musculus with 6 samples.

Results

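Genes of tissue macrophages and of white blood cells at large, 10 in all, were followed in mouse embryos that lack the transcription factor Sp3, on 15 probe sets. They were chosen by name: the 3 chains of complement C1q (C1qa, C1qb and C1qc), the growth factor receptor Csf1r, the surface antigen Adgre1, the scavenging receptors Mrc1 and Cd163, the apoptotic cell receptor Timd4, the secreted protein Cd5l and the leukocyte phosphatase Ptprc. Every probe set annotated to 1 of them alone was taken. These 10 genes stand among 18193 genes and 45037 probe sets measured on the arrays. The series compared 3 Sp3 knockout hearts with 3 wildtype hearts, all given as stage E12.5. Per the submitters' extraction notes, each array carried the RNA of a single heart. Both groups were lettered a to c in the sample titles. Strain, sex and the allele of the knockout were not given in the sources used here. Sp3 is a zinc finger protein that binds GC-rich promoter elements.

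Macrophages of the embryo arise from the yolk sac and the fetal liver and settle in most tissues, where they engulf dying cells and, in blood-forming tissue, the nuclei that red cell precursors expel. Their survival depends on Csf1r, the receptor shared by the cytokines Csf1 and Il34. They are a major source of C1q, the protein that binds antibody complexes and dying cells and opens the classical complement pathway. Ptprc, known as CD45, is found on nearly all nucleated blood cells and so is not particular to macrophages.

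The single Sp3 probe set read 8.39, 8.34 and 8.61 on the log2 scale in knockout a, b and c, against 9.87, 9.77 and 9.54 in wildtype a, b and c (limma adjusted p = 0.00254). The call was lost without the intensity trend in the fit and without knockout a, where the limma adjusted p was 0.279 and 0.0665. The groups did not overlap, as the labels call for, but the allele is not known and so neither is the stretch of Sp3 this probe set reads. The tissue label fitted less well in both groups. The median of 13 hepatocyte genes lay at the 99.0th percentile of all probe sets and that of 18 heart muscle genes at the 37.4th, so the levels below belong to samples labelled as hearts whose makeup is not settled. Array medians ran from 22.5 to 26.7 intensity units, and 3 arrays a group limit the precision of every value. In whole samples, fewer macrophages and less RNA per macrophage cannot be told apart.

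Of the 10 genes 9 were lower in knockout than in wildtype, and the exception, Cd163, was near the bottom of the scale. Taking each gene by its brightest probe set, the median log2 difference was -0.56, against -0.02 over all genes, of which 52.5% were lower. Of the 15 probe sets 0 passed a Benjamini-Hochberg adjusted p under 0.05 in limma, where 0.0155% of all probe sets were called lower and 0.0155% higher. At an unadjusted p under 0.05, 7 of the 10 genes were lower, namely C1qa, C1qb, C1qc, Csf1r, Mrc1, Cd5l and Ptprc, where 5.51% of all genes were. Counted by probe set, the 10 genes were lower at that threshold in 9 of 15, where 3.89% of all probe sets were. The 1 member probe set higher at that threshold was that of Cd163, and 3.2% of all genes were higher. The groups did not overlap, with knockout lower, in 6 of the 10 genes (9.04% of all genes) and 8 of the 15 probe sets (6.89% of all probe sets). Heart muscle genes stood the other way round in the same arrays: 15 of 18 were higher in knockout, with a median log2 difference of 0.79 (0.82 without knockout c). At an unadjusted p under 0.05, 5 (27.8%) of them were higher, beside 3.2% of all genes. Without knockout c 2 of the heart muscle genes were, with no share of all genes taken. Their summed intensity was 1161, 1235 and 1116 in knockout, against 1054, 433.9 and 639.8 in wildtype, and their part in the lower macrophage values was not tested. Myl3, a myosin light chain of heart muscle and the gene of smallest p, read 5.42, 5.56 and 5.00 in knockout, against 3.70, 4.51 and 3.95 in wildtype. Actc1, the brightest of the list, read 8.85, 8.99 and 8.24 in knockout, against 8.77, 6.35 and 7.70 in wildtype, with overlapping groups. Of the 18 genes 11 lay below the 50th percentile of all probe sets, where the spread between arrays is larger.

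Knockout c was the lowest of the 6 arrays in 9 of the 10 genes, while it was the lowest in 21.9% of all genes. Without knockout c the median log2 difference of the 10 genes was -0.35 and 4 of them, C1qb, Csf1r, Cd5l and Ptprc, were lower at an unadjusted p under 0.05, where 4.22% of all genes were. Knockout a and b by themselves lay below all 3 wildtype arrays in the same 6 genes, C1qa, C1qb, C1qc, Csf1r, Cd5l and Ptprc. This count could not fall, since leaving out an array cannot undo a lack of overlap. With knockout a and b alone 13.3% of all genes lay below wildtype in this way. The count of 7 genes also depended on the variance model: without an intensity trend it was 3, namely C1qb, Cd5l and Ptprc, where 3.11% of all genes were lower. That fit called 0 of all probe sets after adjustment and 5.99% of them, in either direction, before it.

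**Figure D1:**
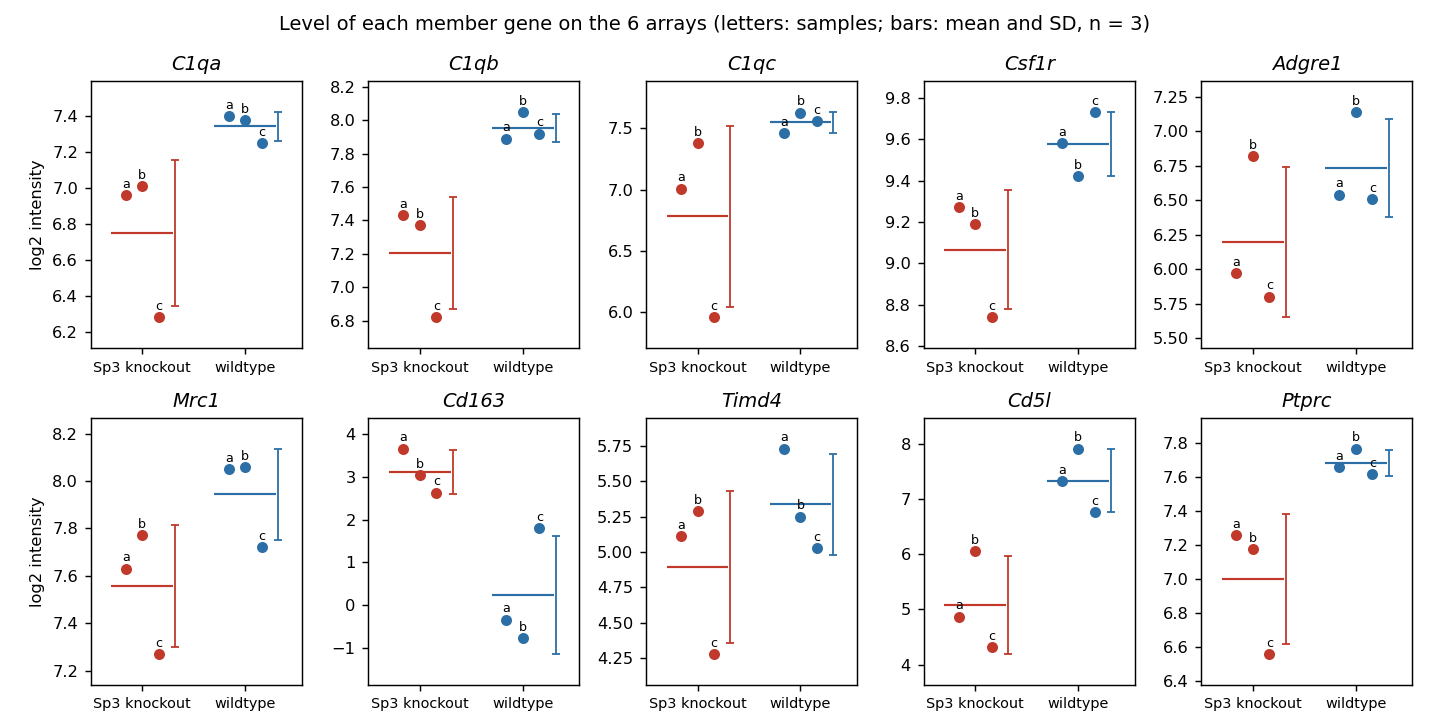
Level of each gene on the 6 arrays, as log2 intensity of its brightest probe set on the vertical axis, with Sp3 knockout in red at the left and wildtype in blue at the right of each panel. Points are arrays, marked by their letter, horizontal lines are means and bars are SDs (n = 3 each). Knockout c is the lowest point in every panel but that of Cd163, whose levels are close to the bottom of the scale.

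The 3 chains of C1q, which assemble together into 1 molecule, were all lower in knockout. C1qa read 6.96, 7.01 and 6.28 in knockout a, b and c, against 7.40, 7.38 and 7.25 in wildtype a, b and c. The groups did not overlap, wildtype arrays lay within 0.15 of each other, and knockout c stood 0.68 below the next knockout array. The log2 difference was -0.59 ± 0.20 (SE), or 66.4% of the wildtype level, with limma adjusted p = 0.622.

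C1qb, the B chain, had 3 probe sets. Its brightest read 7.43, 7.37 and 6.82 in knockout a, b and c, against 7.89, 8.05 and 7.92 in wildtype, with a log2 difference of -0.75 ± 0.17 (SE) and limma adjusted p = 0.350. Knockout a and b were close to each other and under all wildtype arrays, so that the difference was -0.55 without knockout c. At the probe set 1437726_x_at the values were 7.10, 6.84 and 6.73 in knockout, against 7.71, 7.91 and 7.71 in wildtype. This was the smallest p among all 15 probe sets, with a log2 difference of -0.89 ± 0.16 (SE), limma adjusted p = 0.149, and a difference of -0.80 without knockout c. The last one, 1434366_x_at, read 6.88, 7.13 and 6.91 in knockout, against 7.27, 7.04 and 7.52 in wildtype, where knockout b lay above wildtype b. Its difference was smaller, at -0.30 ± 0.17 (SE). The suffix x marks probe sets that hold probes matching other transcripts as well, so both of the last readings are less specific than the brightest one.

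C1qc, the C chain, varied more among knockout arrays than C1qa or C1qb, with 7.01, 7.38 and 5.96 there, against 7.46, 7.63 and 7.56 in wildtype. Knockout b came within 0.08 of wildtype a, while knockout c was far below all others. The log2 difference of -0.76 ± 0.31 (SE), with limma adjusted p = 0.669, was -0.35 without knockout c, and it rests in large part on that array.

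In RefSeq's annotation of GRCm38.p6 the 3 C1q genes lie side by side on chromosome 4. The bases before the annotated starts of C1qb and C1qc are shown because the targeted gene encodes a protein that binds GC boxes and these neighbouring genes were both lower. C1qb, on the minus strand at chr4:136886201-136886450, and C1qc, on the minus strand at chr4:136892915-136893164, are each given 5′ to 3′ up to the base before the start. Capitals mark GGGCGG, the core of the GC box, and GAGGAA, the core of the site of PU.1, the master regulator of the macrophage lineage, on either strand (as CCGCCC and TTCCTC on the other).
C1qb: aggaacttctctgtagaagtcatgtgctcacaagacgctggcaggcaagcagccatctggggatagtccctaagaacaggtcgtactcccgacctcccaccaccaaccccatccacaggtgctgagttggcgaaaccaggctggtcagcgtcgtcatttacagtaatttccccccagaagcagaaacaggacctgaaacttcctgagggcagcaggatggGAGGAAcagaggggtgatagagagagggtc
C1qc: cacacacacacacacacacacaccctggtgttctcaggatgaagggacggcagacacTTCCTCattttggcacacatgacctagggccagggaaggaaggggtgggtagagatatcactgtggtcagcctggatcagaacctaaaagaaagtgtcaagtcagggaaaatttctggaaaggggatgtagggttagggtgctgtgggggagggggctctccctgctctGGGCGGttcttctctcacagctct
The C1qb stretch holds 0 matches to the GC box core and 1 to the PU.1 core, 30 to 25 bases before the start. The C1qc stretch holds 1 GC box core, 24 to 19 bases before the start, and 1 PU.1 core on the opposite strand, 193 to 188 bases before it. The 2 motifs do not overlap each other in these stretches. Of the 7 member genes with a RefSeq promoter entry, 2 (C1qc and Mrc1) held the GC box core and 5 (C1qb, C1qc, Mrc1, Cd5l and Ptprc, the last in 1 of its 2 entries) the PU.1 core. Over all 32851 promoter entries the shares were 32.7% and 23.3%. A match of letters is a description of the window and not a binding site.

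Csf1r, the receptor on which macrophages depend, was lower at all 3 of its probe sets. The brightest read 9.27, 9.19 and 8.74 in knockout a, b and c, against 9.58, 9.42 and 9.73 in wildtype, with no overlap. The log2 difference was -0.51 ± 0.14 (SE), with limma adjusted p = 0.520, and -0.35 without knockout c. At 1423593_a_at the arrays read 6.60, 6.44 and 6.20 in knockout, against 6.75, 7.04 and 7.03 in wildtype, again without overlap and with a difference of -0.53 ± 0.19 (SE). At 1419873_s_at, whose suffix marks probes shared by several transcripts, knockout read 7.32, 6.93 and 7.10 and wildtype 7.48, 6.96 and 7.71. There the groups overlapped, and the difference of -0.27 ± 0.20 (SE) was close to its error.

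The cytokines and lineage factors around Csf1r lay close together in both groups, with a median log2 difference of 0.09. Csf1 was at 6.27 ± 0.17 in knockout, against 6.17 ± 0.26 in wildtype, and Il34, its other ligand, at 4.20 ± 0.37 in knockout, against 4.11 ± 0.37 in wildtype (mean ± SD, n = 3 each). Spi1, the gene of PU.1, was at 5.64 ± 0.21 in knockout, against 5.88 ± 0.12 in wildtype. These 3 genes were picked for their roles after their values were seen. In a list of 15 measured ligands and transcription factors of macrophages, 0 were lower and 0 higher at an unadjusted p under 0.05, and 5 were lower in sign. The factor with the smallest unadjusted p was Cebpa, which myeloid cells share with hepatocytes, at 7.48 ± 0.36 in knockout, against 7.86 ± 0.16 in wildtype. Next came Spic, which in mouse is known for iron-recycling macrophages, at 3.86 ± 0.52 in knockout, against 4.77 ± 0.92 in wildtype. The brightest factors, Id3 and Zeb2, differed by 0.22 and 0.37.

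Adgre1 encodes F4/80, the classic surface antigen of mouse macrophages. It read 5.97, 6.82 and 5.80 in knockout a, b and c, against 6.54, 7.14 and 6.51 in wildtype. Sample b was the highest of each group, and knockout b lay above wildtype a and c. The groups therefore overlapped, and the log2 difference was -0.53 ± 0.28 (SE), with limma adjusted p = 0.723.

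Among the receptors that clear material, Mrc1, the mannose receptor, read 7.63, 7.77 and 7.27 in knockout a, b and c, against 8.05, 8.06 and 7.72 in wildtype. Knockout b lay just above wildtype c, so the groups overlapped narrowly, with a log2 difference of -0.39 ± 0.17 (SE) and limma adjusted p = 0.680. Timd4, which binds phosphatidylserine on dying cells, read 5.11, 5.29 and 4.28 in knockout, against 5.73, 5.25 and 5.03 in wildtype. Its groups overlapped, and its log2 difference of -0.44 ± 0.34 (SE) was -0.13 without knockout c. Cd163 takes up haemoglobin bound to haptoglobin. It read 3.66, 3.04 and 2.63 in knockout, against -0.34, -0.77 and 1.80 in wildtype. All 3 knockout arrays lay above the wildtype arrays, but in this range, from the 2nd of 10 classes of probe sets by level, the median residual SD was 1.386. No size is given for this difference, for which limma adjusted p was 0.634, and with 16 intensity units added to each value before log2 the difference was 0.50.

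Cd5l, a secreted protein of macrophages known as AIM that protects cells from apoptosis and binds IgM, had the largest difference of the genes that were lower. It read 4.87, 6.06 and 4.32 in knockout a, b and c, against 7.32, 7.91 and 6.76 in wildtype. Every knockout array lay below every wildtype array, and knockout b, the highest knockout array, was 0.70 under the lowest wildtype array. The log2 difference was -2.25 ± 0.45 (SE), or 21.1% of the wildtype level, with limma adjusted p = 0.338. It was -1.87 without knockout c. Without knockout b it was -2.74, and this was the only fit leaving out an array in which a member passed, with limma adjusted p = 0.0334; over all alternatives the adjusted p of Cd5l ran from 0.000546 to 0.872. Both groups had the same order by letter, with b highest and c lowest.

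The bases before the start of Cd5l are shown for comparison with those of the C1q genes, a choice made after its values were seen. They run 5′ to 3′ on the plus strand at chr3:87357631-87357880 in GRCm38.p6, with the PU.1 core in capitals as TTCCTC.
Cd5l: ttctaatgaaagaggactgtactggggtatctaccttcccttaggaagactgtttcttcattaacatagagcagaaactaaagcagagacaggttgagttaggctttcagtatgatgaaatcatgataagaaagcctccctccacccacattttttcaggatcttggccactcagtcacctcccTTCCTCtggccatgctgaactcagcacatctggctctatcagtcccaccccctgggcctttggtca
It holds 1 PU.1 core, 66 to 61 bases before the start, and 0 matches to the GC box core.

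Ptprc, the CD45 phosphatase, read 7.26, 7.18 and 6.56 in knockout a, b and c, against 7.66, 7.77 and 7.62 in wildtype. As for C1qa and C1qb, the wildtype arrays were tightly grouped, knockout a and b lay below them and knockout c lower still. The log2 difference was -0.68 ± 0.19 (SE), with limma adjusted p = 0.518, and -0.46 without knockout c. The second probe set, 1440165_at, lay near the bottom of the scale, at -0.07, 3.65 and 3.10 in knockout, against 0.55, 1.62 and 4.11 in wildtype, and gives no usable comparison.

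**Figure D2:**
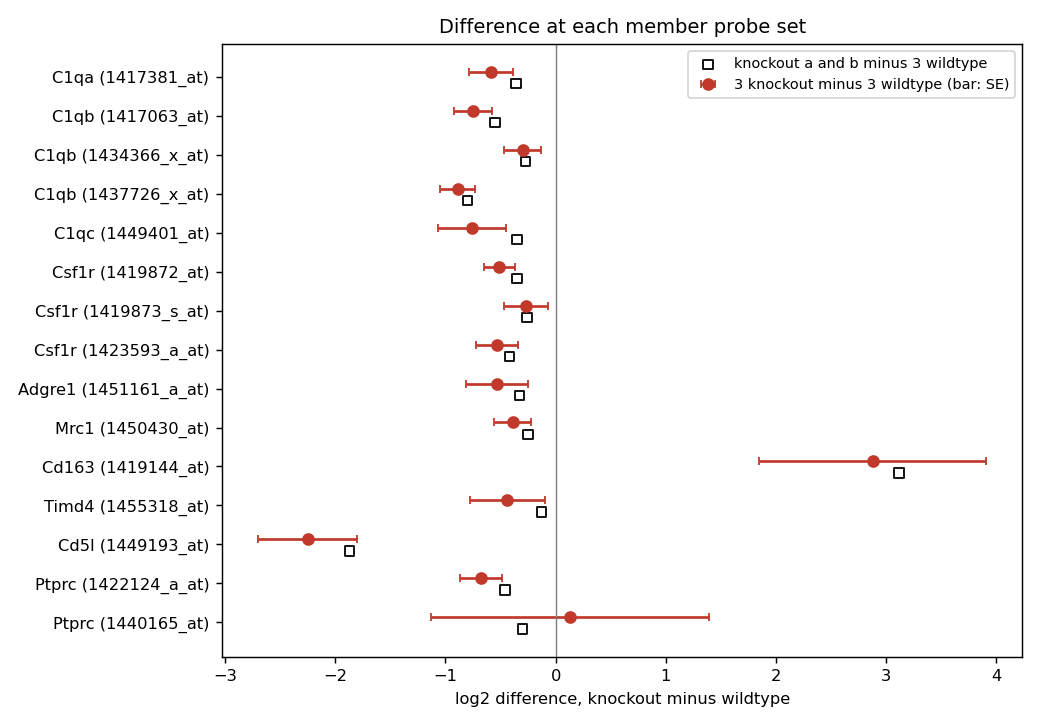
Log2 difference, knockout minus wildtype, at each of the 15 probe sets (horizontal axis). Red points with SE bars compare 3 knockout with 3 wildtype arrays, and open squares leave out knockout c. Of the 15 red points 13 lie left of 0, and most squares lie nearer to 0 than their red points, with Cd5l far to the left in both.

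Many other macrophage genes were lower too. Of 36 measured genes in a list of receptors, enzymes and surface proteins, 28 were lower and 8 higher, with a median log2 difference of -0.33, and 11 (30.6%) were lower at an unadjusted p under 0.05, beside 5.51% of all genes. None of them was higher at that threshold, beside 3.2% of all genes. None of the 36 passed the adjusted threshold. Without knockout c the median was -0.16, 22 genes were lower, and 6 were so at an unadjusted p under 0.05, beside 4.22% of all genes. The genes of smallest p were Slc40a1, the iron exporter ferroportin, and Lgmn, a lysosomal protease. Slc40a1 read 9.04, 9.03 and 8.66 in knockout, against 9.50, 9.31 and 9.62 in wildtype, and Lgmn 6.96, 7.11 and 6.20 in knockout, against 8.06, 8.01 and 7.26 in wildtype. Neither had overlapping groups. Apoe, the brightest of the list and also a gene of hepatocytes, was at 10.86 ± 0.20 in knockout, against 10.93 ± 0.05 in wildtype (mean ± SD, n = 3 each).

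A few further genes of this list were picked after their values were seen. Mertk, a receptor for dying cells, read 6.06, 6.22 and 6.15 in knockout a, b and c, against 6.63, 6.54 and 6.71 in wildtype. It had no overlap, and knockout c was not apart from the other knockout arrays. Marco, a scavenger receptor, read 4.97, 4.77 and 1.92 in knockout, against 6.00, 6.59 and 5.55 in wildtype, with knockout c far below. Cx3cr1, the fractalkine receptor, was at 6.01 ± 0.53 in knockout, against 6.02 ± 0.09 in wildtype, and Clec4f, a lectin of mouse Kupffer cells, at 4.26 ± 0.51 in knockout, against 4.17 ± 0.23 in wildtype. These last 2 genes overlapped between the groups.

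Genes shared by most white blood cells were mostly lower, as Ptprc was. Of 22 measured genes 16 were lower, with a median log2 difference of -0.31, and 5 (22.7%) were lower at an unadjusted p under 0.05, beside 52.5% and 5.51% of all genes. Coro1a, an actin-binding coronin, read 8.91, 8.85 and 8.39 in knockout, against 9.18, 9.41 and 9.19 in wildtype. Lcp1, the leukocyte plastin, read 8.04, 7.69 and 7.49 in knockout, against 8.15, 8.53 and 8.10 in wildtype. The brightest genes of the list differed little, with Arhgdib at -0.10 and Plek at 0.07. Without knockout c the median was -0.15, 16 genes were lower in sign, and 2 of the 22 were lower at an unadjusted p under 0.05, where 4.22% of all genes were.

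Lysosomal genes, which all cells use and macrophages hold in plenty, were also mostly lower. Of 14 measured genes 12 were lower, 7 with no overlap between groups and 5 (35.7%) at an unadjusted p under 0.05, beside 9.04% and 5.51% of all genes. Their median was -0.17 with and without knockout c, and 4 were lower at an unadjusted p under 0.05 without it, beside 4.22% of all genes. Ifi30, a lysosomal thiol reductase used in antigen processing, was the only gene of all lists and members that passed, at 8.04, 8.15 and 8.16 in knockout, against 9.25, 9.42 and 9.13 in wildtype, with a log2 difference of -1.15 and limma adjusted p = 0.00414. The call was lost without knockout a, without wildtype a and without the intensity trend, where the limma adjusted p was 0.0817, 0.0639 and 0.278, while the difference was -1.11 and -1.15 in the first 2. Next was Ctsz, cathepsin Z, at 10.22, 10.03 and 10.14 in knockout, against 10.44, 10.67 and 10.61 in wildtype. Ctsb, cathepsin B and the brightest gene, overlapped between groups, at 11.17 ± 0.44 in knockout, against 11.63 ± 0.21 in wildtype (mean ± SD, n = 3 each).

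The rest of the complement system, much of it made by hepatocytes, lay nearer to 0 than C1q. Of 21 measured components, regulators and receptors 15 were lower, but the median log2 difference was -0.04 and 2 (9.52%) were lower at an unadjusted p under 0.05, a share near the 5.51% of all genes. The 2 of smallest p were C2, the protease that acts after C1 in the classical pathway, at 5.75 ± 0.24 in knockout, against 6.26 ± 0.04 in wildtype, and Cr1l, the complement regulator Crry of mouse cell surfaces, at 8.82 ± 0.35 in knockout, against 9.26 ± 0.09 in wildtype (mean ± SD, n = 3 each). The brightest were C1qbp, a mitochondrial protein named for binding C1q, with a difference of -0.04, and Cfi, complement factor I, with -0.04.

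**Figure D3:**
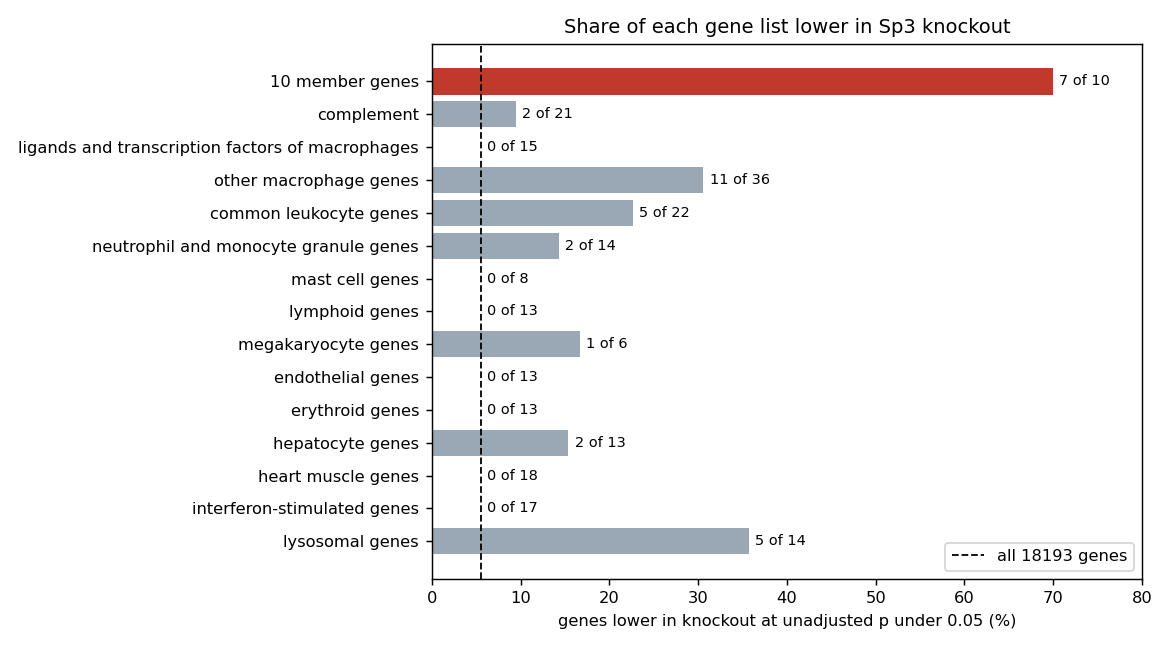
Percentage of each gene list that was lower in knockout at an unadjusted limma p under 0.05 (horizontal axis), with counts beside the bars and the share of all 18193 genes as a dashed line at 5.51%. The 10 followed genes are in red at 7 of 10, macrophage and lysosomal genes come next, and several lists, among them macrophage ligands and factors, stand at 0.

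Markers of other blood cells were also low in knockout c, and their part in the result was not tested. Knockout c was the lowest array in all 13 measured erythroid genes, whose summed intensity was 20040 in knockout c and 30250 and 35230 in its group mates, with wildtype between 29350 and 40150. Slc4a1, the red cell anion exchanger, read 12.17, 12.41 and 11.35 in knockout, against 12.42, 12.45 and 12.15 in wildtype. Of 14 neutrophil and monocyte granule genes knockout c was lowest in 10, with a summed intensity of 3248, beside 5466 and 6126 in its group mates and between 4605 and 8159 in wildtype. S100a8, a calcium-binding protein of neutrophils and monocytes, read 10.29, 10.77 and 9.79 in knockout, against 10.85, 11.31 and 10.31 in wildtype. Without knockout c the median log2 difference was -0.08 for the erythroid list and -0.18 for the granule list, and that of the 10 followed genes was -0.35. In that fit 8 of the 14 granule genes were lower in sign. At an unadjusted p under 0.05, 1 of them was lower, beside 4.22% of all genes. At that threshold 3 were higher, Mpo, Elane and Prtn3, named for passing it, at 0.55, 0.76 and 0.45. With all arrays 2 granule genes (14.3%) were lower at an unadjusted p under 0.05, beside 5.51% of all genes. Of these, Lcn2 read 6.63, 6.38 and 5.82 in knockout, against 6.79, 7.71 and 6.87 in wildtype, with no overlap. Its log2 difference was -0.62 without knockout c. The other, monocyte receptor Ccr2, read 5.41, 4.66 and 3.51 in knockout, against 5.94, 5.63 and 5.34 in wildtype, with overlapping groups.

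Other cell types were followed by lists of their own. Endothelial genes, relevant because liver sinusoidal endothelium also carries Mrc1 and Lyve1, had 9 of 13 higher in knockout and a median log2 difference of 0.14. Among them Flt4, the lymphatic growth factor receptor, read 7.38, 6.77 and 7.05 in knockout, against 6.49, 6.34 and 6.58 in wildtype, and Stab2 and Oit3 differed by 0.14 and 0.07. Clec4g, a lectin of liver sinusoidal endothelium, read 4.40, 5.06 and 4.66 in knockout, against 4.46, 2.40 and 3.44 in wildtype, with overlapping groups. Lyve1, from the macrophage list and picked after its values were seen, was at 7.69 ± 0.41 in knockout, against 8.31 ± 0.27 in wildtype (mean ± SD, n = 3 each). Megakaryocyte genes had a median of -0.04 over 6 genes, with Pf4, platelet factor 4, at -0.01 and Ppbp, a platelet chemokine, at -0.34. Lymphoid genes had 10 of 13 lower and a median of -0.58, which was 0.02 without knockout c, and mast cell genes had 4 of 8 lower and a median of 0.10, which was 0.37 without it. Of these 13 and 8 genes, 11 and 6 lay below the 50th percentile of all probe sets, and 0 of either were lower at an unadjusted p under 0.05.

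**Figure D4:**
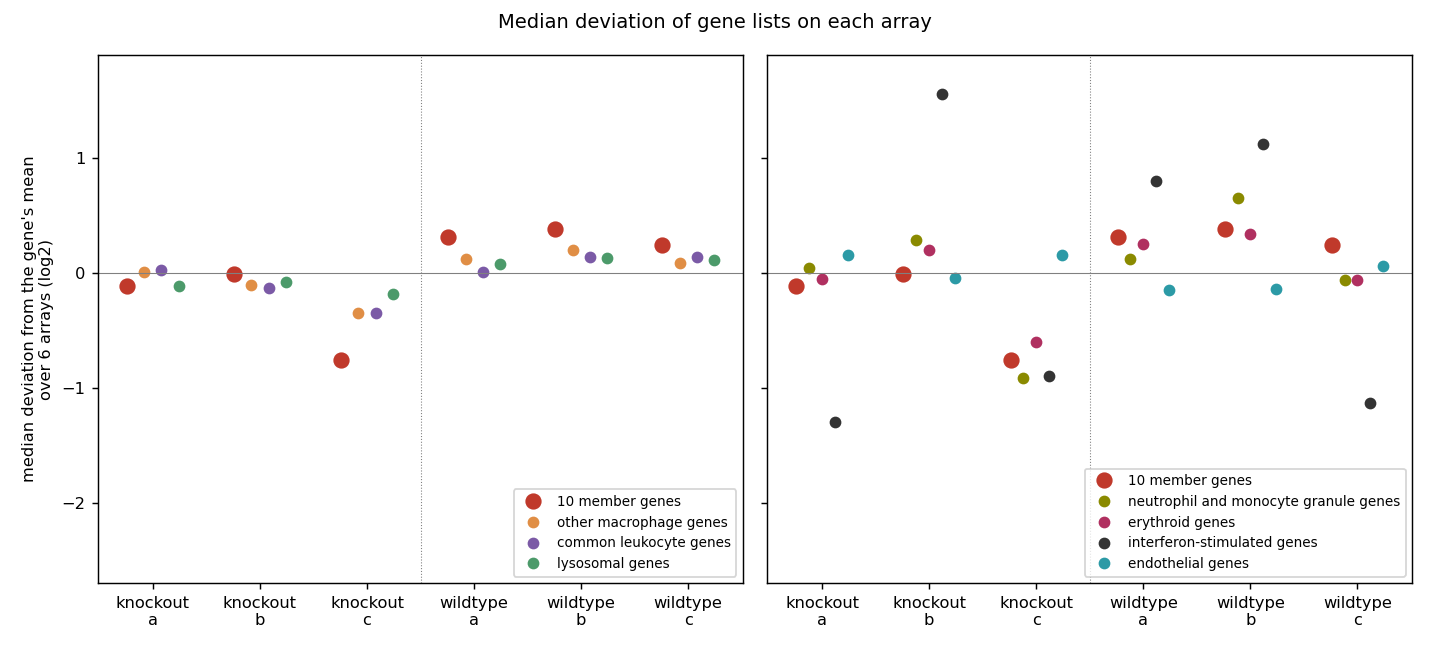
Median deviation of each gene list from its genes' own means over the 6 arrays, in log2 units (vertical axis), for knockout a to c and wildtype a to c (horizontal axis). The 10 followed genes (large red points) lie at -0.11, -0.01 and -0.76 in knockout and at 0.31, 0.38 and 0.24 in wildtype; erythroid and granule genes share the low value of knockout c, and interferon-stimulated genes follow another order.

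Genes outside the macrophage lists had a profile over the arrays close to the mean profile of the 10 genes. This mean deviation was -0.05, 0.15 and -0.70 in knockout, against 0.16, 0.22 and 0.22 in wildtype. It includes Cd163, at 1.99, 1.37 and 0.97 in knockout, against -2.01, -2.44 and 0.13 in wildtype, which narrows the gap between groups. The median deviation, on which 1 gene weighs less, was -0.11, -0.01 and -0.76 in knockout, against 0.31, 0.38 and 0.24 in wildtype. Among 6303 other genes with a mean log2 level of at least 7, likeness to the mean profile was measured as the root-mean-square difference over the 6 arrays. A ranking without Cd163 was not made. The nearest 8 were Ccna2 (0.054), Sgk3 (0.084), Fbxo9 (0.085), Mrps11 (0.088), Stk16 (0.089), Prc1 (0.091), Cenpm (0.091) and Grina (0.093). Ccna2 encodes cyclin A2, Prc1 a protein of the dividing cell's midzone and Cenpm a centromere protein, so these 3 are cell division genes, and Mrps11 is a protein of the mitochondrial ribosome. Of the 8, 0 are in any of the gene lists used here. Ccna2 read 11.36, 11.53 and 10.71 in knockout, against 11.61, 11.65 and 11.51 in wildtype, with only knockout c well apart. C1qa, the member nearest to the profile it helped to form, had a root-mean-square difference of 0.12 and would take place 32 in that order.

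The members differed among themselves in how far they moved and in which arrays. Apart from Cd163, the range over the 6 arrays was widest for Cd5l, at 3.59, and narrowest for Mrc1, at 0.79. The gap between the highest knockout and the lowest wildtype array was 0.70 for Cd5l, 0.46 for C1qb, 0.36 for Ptprc, 0.24 for C1qa, 0.15 for Csf1r and 0.08 for C1qc, while Mrc1, Adgre1 and Timd4 overlapped. C1qc, Adgre1, Mrc1 and Cd5l were highest in sample b of each group, whereas Csf1r was highest in wildtype c, and C1qa and Timd4 in wildtype a.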

How the data were processed

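The deposited table holds 1 intensity per probe set and array on a linear scale; GCOS and RMA are listed, without version or role, per the submitters' processing notes, so how the authors made these intensity values is not known. Of 45101 probe sets 64 controls were left out. GEO's annotation gave 1 gene for 34945, and a gene stands by its probe set of highest mean. Log2 was taken with no further normalization. The design had also planned the C1q proteins, which are not used here, and C1qa, Adgre1 and Csf1r have no promoter shown.

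All 45037 probe sets were fitted in R 4.3.3 with limma 3.58.1 (lmFit, eBayes with an intensity trend and robust estimation, two-sided, group as the only term), since the median residual SD fell with level, being 1.267 in the dimmest of 10 classes and 0.125 in the brightest. The test was checked on simulated data. Genes named were the 10 members, the 8 of nearest profile and Sp3. For each list they were drawn from the 2 of smallest p and the 2 brightest, not all of which are shown. Others are marked. The members, lists and the variance model were chosen with earlier results of these data known. No pair of arrays was a copy. Letters were not treated as pairs. The p-values rest on the spread between arrays, each given as a single heart, drawn by the fit towards that of probe sets of like level. Alternatives were the fit without trend, quantile normalization, median centring, dim probe sets left out, 16 units added, array weights, a block for the letter, averaging the probe sets of each gene, and each array left out.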

Additional observations from a re-analysis of the deposited data

How the results depend on the processing

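Over the alternatives the median log2 difference of the 10 genes stayed between -0.75 and -0.35. The count of member genes lower at an unadjusted p under 0.05 was 7, and it was 3 without the intensity trend and 4 to 8 when an array was left out, lowest without knockout c. Of all genes 5.51% were lower with all arrays and the trend, 3.11% without the trend and 4.22% without knockout c. No such share was taken for the other alternatives. Over all probe sets, where the fit called 7 lower and 7 higher, limma without the trend called 0 in each direction, with 2699 (5.99%) at an unadjusted p under 0.05. Array weights called 18 lower. Leaving out an array called 0 to 12 lower (0 without knockout a, 1 without wildtype a, 4 each without knockout c and wildtype b, 12 without wildtype c) and 3 to 12 higher (3 each without knockout a and c, 12 without wildtype c). Of 193 values of member probe sets under 13 alternatives, 4 changed sign, all at the dim second Ptprc probe set, whose difference of 0.13 ran from -0.64 to 1.28 when an array was left out, and 4 newly passed. These were Cd5l without knockout b, and Cd5l and 2 probe sets of C1qb with the letter as replicate block.

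The letters are shared by the groups. The deviations of same-lettered arrays correlated at 0.01 for a, 0.308 for b and 0.436 for c. For knockout b and c the same letter gave the highest correlation, while knockout a correlated best with wildtype b, at 0.128. The letters were not taken as pairs, and what they stand for is not known. With the replicate block limma called 206 lower and 52 higher. In that fit 8 member genes were lower at an unadjusted p under 0.05, with no share of all genes taken to set beside them. The limma adjusted p with the block was 0.000546 for Cd5l, and 0.0408 and 0.0177 at the C1qb probe sets 1417063_at and 1437726_x_at. Over the other alternatives the adjusted p of these C1qb probe sets reached 0.865 and 0.779. The dim probe sets of Cd163 and Ptprc are the ones in which low signal limits any reading.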

Other observations

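Interferon-stimulated genes had high and low arrays in both groups, in another order than the macrophage genes. Their median deviation over arrays a to c was -1.30, 1.56 and -0.90 in knockout, against 0.80, 1.12 and -1.13 in wildtype. Ifih1, a sensor of viral RNA, read 6.14, 9.40 and 6.26 in knockout, against 8.55, 8.40 and 6.27 in wildtype. Irf9, part of the factor that carries interferon signals to the nucleus, read 6.92, 8.99 and 6.86 in knockout, against 8.49, 8.55 and 6.73 in wildtype. Of the 17 genes measured 0 were lower and 0 higher in limma at an unadjusted p under 0.05, with and without knockout c. By the brightest probe set of each gene, wildtype c was low in interferon-stimulated genes, but above all knockout arrays in C1q and Ptprc. Knockout b was high in the former and below all wildtype arrays in the latter. Other members shared part of the interferon order. In C1qa, Adgre1, Mrc1, Timd4 and Cd5l, knockout b was the highest knockout array and wildtype c the lowest wildtype array. Adgre1 was highest in wildtype b (7.14), knockout b (6.82) and wildtype a (6.54). At the C1qb probe set 1434366_x_at, knockout b (7.13) lay above wildtype b (7.04). At the dim Ptprc probe set 1440165_at, knockout b (3.65) lay above wildtype a and b (0.55 and 1.62). A link between the 2 sets of genes was not tested.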
